A study of Sus scrofa with 6 samples.

Results

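Matrix metalloproteinases (MMPs), the related ADAM and ADAMTS proteases, the ADAMTS-like proteins and the tissue inhibitors of metalloproteinases (TIMPs) were measured in stromal cells grown from pig jaw and leg marrow. The set held 49 genes among 12218 genes that carried a single symbol in the platform annotation. A gene was a member if its symbol began with MMP, ADAM, ADAMTS, ADAMTSL or TIMP followed by a number, and it was represented by its probe set of highest average level. MMP9 was set apart by the same rule. The 49 genes were 13 MMPs, 17 ADAMs, 13 ADAMTS proteases, 3 ADAMTS-like genes and 3 TIMPs. ADAMTS1 and TIMP4 had no probe set with a single symbol and were not analysed here. ADAMTS5 was not a member because its probe set carries that symbol more than once.

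MMPs are zinc-dependent enzymes that cut collagens and other matrix proteins, and most are secreted as inactive precursors. ADAMs are membrane-anchored relatives that release the outer parts of surface proteins, such as growth factors and cytokines, although several family members lack a working active site. ADAMTS enzymes are secreted, bind matrix, and trim procollagens or cut large proteoglycans, and TIMPs block the active sites of all 3 enzyme groups to differing degrees. In marrow and bone these enzymes are known for matrix turnover, cell migration and the remodelling of cartilage and bone.

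The mandibular group was 3 primary cultures of mesenchymal stem cells whose marrow was taken at the mandibular symphysis, the front midline of the jaw. The tibial group was 3 such cultures from marrow of the tibia. All came from female American Yorkshire pigs aged 4 months, were at passage 0 and were grown to 80% confluence, and no treatment or genetic change is named for either group. The pigs numbered 3, according to the design text, and each site was sampled in them. No label ties a culture number to a pig, so the groups were compared unpaired and arrays that share a pig are not fully independent.

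Levels are the deposited log2 values, and a difference is mandibular minus tibial on that scale. Array medians lay between 5.63 and 5.71. Levels carry no detection call, so a low level cannot be separated from background. Each probe set has its own response, so levels of different genes are set side by side only as a rough guide to low or high signal. The stromal marker list had means from 11.22 to 11.47 on the mandibular and from 11.36 to 11.44 on the tibial arrays, with 9 of 10 genes measured. The lymphocyte, endothelial and erythroid lists stayed between 3.42 and 5.01 on every array.

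Some arrays did not follow their labels. A jaw list (8 transcription factor genes that pattern the embryonic jaw) and a HOX list (6 genes that mark trunk and limb positions) were averaged on each array. On mandibular 2 the jaw and HOX means were 5.22 and 6.71, near those of tibial 1 (5.23 and 6.67) and tibial 2 (5.06 and 6.80). On tibial 3 these means were 6.74 and 5.06, near those of mandibular 1 (6.88 and 4.58) and mandibular 3 (6.65 and 4.59). All 6 HOX genes had lower mandibular means, while 6 jaw genes had higher and 2 lower ones. ALX1, LHX8, PAX9, HAND2 and MSX1 carried the jaw pattern, and LHX6 and ALX4 varied little. BARX1 went the other way, at 5.91, 7.45 and 5.80 on the mandibular arrays, against 6.37, 6.63 and 5.65 on the tibial arrays. Macrophage genes also separated the arrays: the mean of 17 measured markers was 5.04, 6.09 and 5.07 on mandibular 1, 2 and 3, and 8.28, 7.68 and 5.51 on tibial 1, 2 and 3. Of these 17 genes, 16 had lower mandibular means. The osteoclast list (9 genes) had means of 5.67, 5.98 and 5.75 on the mandibular arrays, against 7.15, 6.77 and 5.59 on the tibial arrays. Of these 9 genes, 6 had lower and 3 higher mandibular means, with a median difference of -0.06, and ACP5, ATP6V0D2 and DCSTAMP had the largest differences, from -2.41 to -2.01. The granulocyte list (5 genes, 2 of them with means below the 25th percentile) was also highest on tibial 1 and tibial 2, and all 5 genes had lower mandibular means. Its mean on mandibular 2 was 4.37, near mandibular 1 (4.61) and mandibular 3 (4.36). In the macrophage, osteoclast and granulocyte means, mandibular 2 lay nearer to the other mandibular arrays than to tibial 1 and tibial 2. Because of the jaw and HOX lists, results are also given without the arrays labelled mandibular 2 and tibial 3, a choice made from these data. The calls of that smaller fit describe 2 cultures against 2 and are no independent evidence of a site difference.

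None of the 49 genes differed between the labelled sites beyond the test's threshold. In limma, 0 of 49 genes passed an adjusted p of 0.05, and the same was true of 0% of all 27558 probe sets. The adjusted p was 0.9995 for each of the 49 genes in limma. At an unadjusted p under 0.05 there were 2 of 49 genes, both with higher mandibular means (MMP1 and ADAMTS20), against 3.03% of all probe sets (1.35% higher and 1.69% lower). There was no overlap between the sites for 1 of 49 genes (ADAMTS12, lower in mandibular cultures), against 6.92% of all probe sets (3.35% higher and 3.57% lower) and 6.62% of genes with a single symbol. The mean difference was at least 0.5 in size for 5 of 49 genes, against 6.14% of all probe sets. Mean levels were higher in mandibular cultures for 23 genes and lower for 26, against 51% of all probe sets higher and 49% lower, and the median difference was -0.01, against 0.00 over all probe sets. In simulated data with the spread of these arrays, the fit recovered 33.65% of probe sets changed by 1 log2 unit and 84.35% of those changed by 2, so 0 calls do not show that differences are absent.

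**Figure D1:**
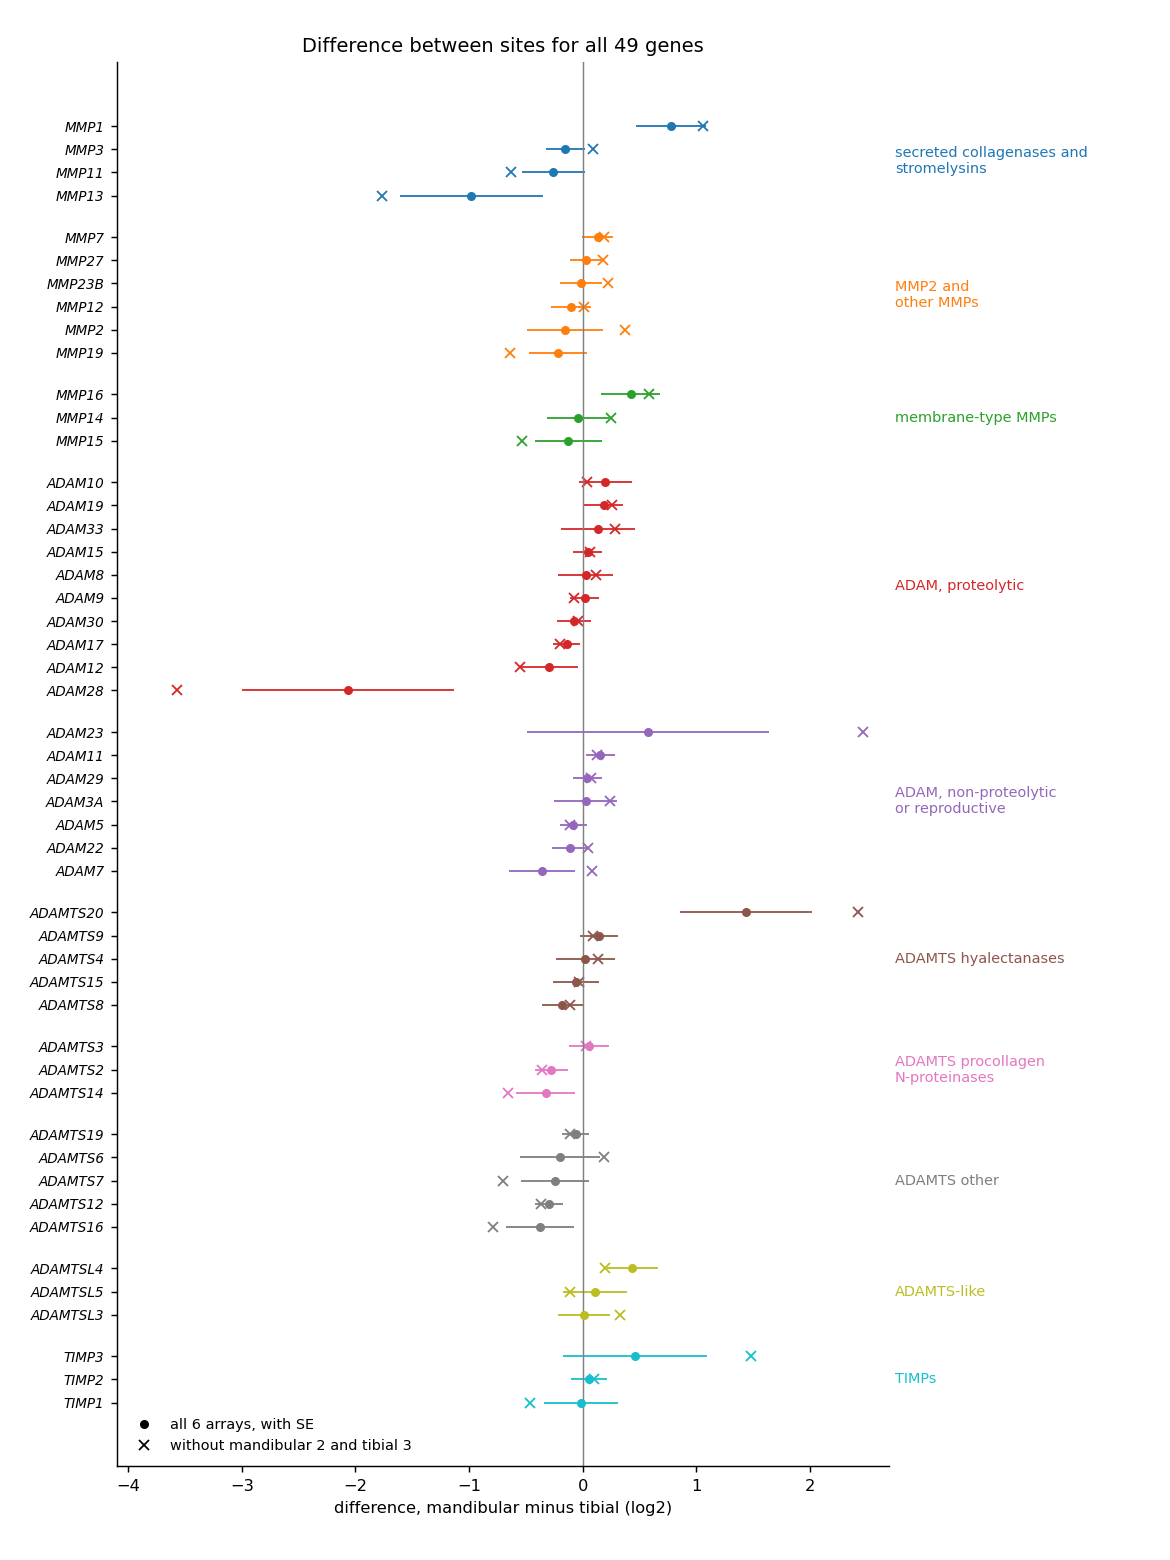
Mean difference of each of the 49 genes (horizontal axis, log2, mandibular minus tibial) by family, with points for all 6 arrays and bars for the standard error (SE) from limma, and crosses for the fit without mandibular 2 and tibial 3. Most points lie within 0.5 of 0, and ADAM28, ADAMTS20, ADAM23, MMP13 and TIMP3 have the long bars or distant crosses.

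The genes varied widely from culture to culture. The highest and lowest of the 6 arrays differed by at least 1 log2 unit for 20 of 49 genes, or 40.8%, against 16.1% of all probe sets and 14.6% of genes with a single symbol. The median range was 0.78 for the 49 genes and 0.51 for genes with a single symbol. The widest ranges were 4.00 for ADAM28, 3.23 for ADAM23, 3.01 for ADAMTS20, 2.94 for MMP13 and 2.41 for TIMP3. Of the 20 genes with a range of at least 1, 8 were highest on tibial 1 (40%), where 24.9% of all probe sets with such a range had their highest level. Levels were low in part of the set: 11 of the 49 genes had a mean below 3.90, the 25th percentile of all probe-set means. These were MMP3, MMP7, MMP12, MMP27, ADAM3A, ADAM5, ADAM10, ADAM22, ADAM29, ADAM30 and ADAMTS19, and none of them had a range of 1 or more.

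**Figure D2:**
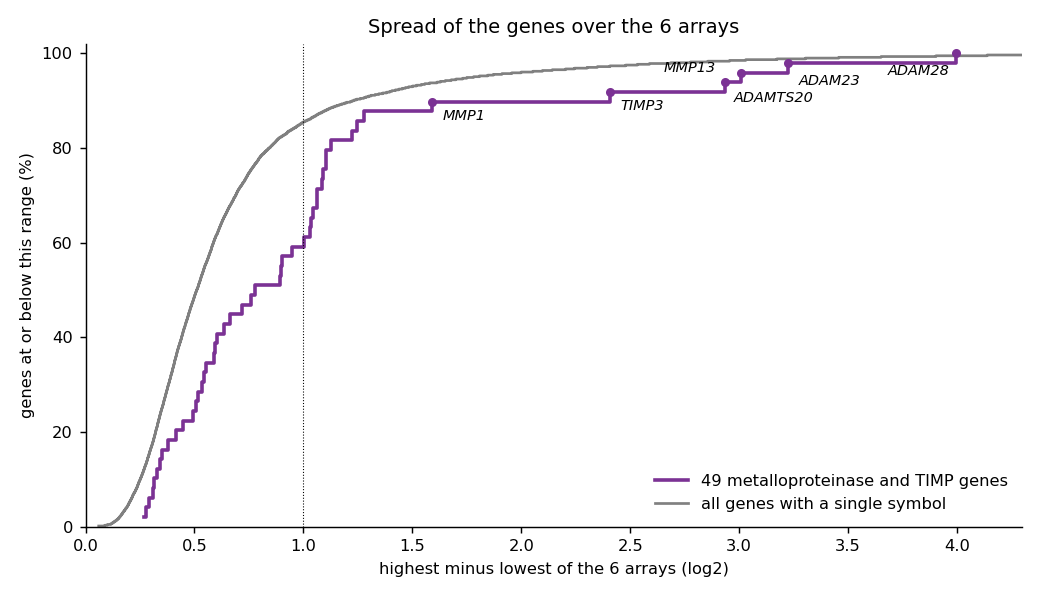
Cumulative percentage of genes (vertical axis) by the difference between the highest and lowest of the 6 arrays (horizontal axis, log2), for the 49 genes and for all genes with a single symbol. The curve of the 49 genes lies to the right, with 40.8% at or beyond the dotted line at 1 against 14.6%.

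Among the collagenases, MMP1 had higher and MMP13 lower mandibular means, and neither passed the test. Both were low, with means over the 6 arrays of 4.28 and 4.05, against 3.90 for the 25th percentile of all probe-set means. Their differences may therefore rest in part on values that cannot be separated from background. MMP1, the interstitial collagenase that cuts fibrillar collagen, measured 5.04, 4.12 and 4.85 on the mandibular arrays, against 4.32, 3.45 and 3.91 on the tibial arrays. Tibial 1 lay above mandibular 2, so the groups overlapped. The difference was 0.78 (SE 0.31), or 1.72-fold higher (adjusted p = 0.9995 in limma), and it stayed between 0.56 and 1.05 when each array was left out in turn. MMP13, a collagenase of hypertrophic cartilage and osteoblasts, measured 3.85, 3.90 and 2.93 on the mandibular arrays, against 4.44, 5.87 and 3.31 on the tibial arrays. Tibial 2 was far above the other arrays and tibial 3 lay within the mandibular values. The difference of -0.98 (SE 0.63) was -0.32 without tibial 2 and -1.60 without tibial 3. MMP3, stromelysin 1, which activates other MMPs, was low throughout, at 2.76, 2.51 and 2.90 on the mandibular arrays, against 2.73, 2.75 and 3.15 on the tibial arrays. MMP11, stromelysin 3, ranged over 1.06 log2 units, with a difference of -0.26 (SE 0.28).

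MMP1, MMP3, MMP12 and MMP13 follow each other without an intervening protein-coding gene in the Sscrofa11.1 annotation, and MMP7 and MMP27 lie close by. Of these 6 neighbours, MMP1 and MMP13 had differences of opposite sign at low levels. The other 4 had still lower levels and differences from -0.15 to 0.14.

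MMP2 and its activator MMP14 had differences close to 0 between the sites. MMP2, gelatinase A, measured 12.72, 11.44 and 12.26 on the mandibular arrays, against 12.05, 12.18 and 12.65 on the tibial arrays. The lowest and the highest level were both mandibular, so the tibial values lay inside the mandibular range. Its difference of -0.15 (SE 0.34) was 0.20 without mandibular 2 and 0.38 without both mandibular 2 and tibial 3. MMP14, the membrane-type enzyme that activates the MMP2 precursor with the help of TIMP2, measured 12.25, 11.30 and 11.71 on the mandibular arrays, against 12.01, 11.45 and 11.92 on the tibial arrays. Mandibular 1 was highest and mandibular 2 lowest for MMP14, as for MMP2. The MMP14 difference was -0.04 (SE 0.27), and it was 0.19 without mandibular 2 and 0.02 with array weights.

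The membrane-type enzyme MMP16, a second activator of the MMP2 precursor, measured 8.63, 8.83 and 8.82 on the mandibular arrays, against 7.74, 8.55 and 8.72 on the tibial arrays. Tibial 1 was low and the other 5 arrays lay close together. The difference was 0.42 (SE 0.26), and without tibial 1 it was 0.13. MMP15, the remaining membrane-type enzyme measured, had a range of 1.13, with its highest level, 7.41, on mandibular 2 and a difference of -0.13 (SE 0.30). For MMP7, MMP12, MMP19, MMP23B and MMP27 the differences lay between -0.22 and 0.14, and their ranges between 0.31 and 0.72. MMP12, the macrophage elastase, was at 2.76, 2.27 and 2.54 on the mandibular arrays, against 2.43, 2.86 and 2.59 on the tibial arrays, levels too low to be separated from background. MMP9, gelatinase B, which is not a member, measured 7.32, 11.13 and 7.61 on the mandibular arrays, against 12.94, 12.29 and 9.47 on the tibial arrays.

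The 3 TIMP genes differed from one another in how they varied. TIMP1, a secreted inhibitor of most soluble MMPs, measured 11.29, 12.16 and 11.58 on the mandibular arrays, against 12.28, 11.50 and 11.28 on the tibial arrays. Mandibular 2 and tibial 1 were high and the groups overlapped fully, with a difference of -0.01 (SE 0.32) that turned to 0.01 when arrays were centred on their medians. TIMP2, which both inhibits MMP2 and helps MMP14 to activate it, measured 12.11, 11.80 and 11.83 on the mandibular arrays, against 12.07, 11.66 and 11.84 on the tibial arrays. Its range of 0.45 was the smallest of the 3, and its difference was 0.06 (SE 0.15). TIMP3, which is held in the matrix and also inhibits ADAM17 and the aggrecan-cutting ADAMTS enzymes, measured 11.58, 10.80 and 11.54 on the mandibular arrays, against 10.19, 9.97 and 12.38 on the tibial arrays. Tibial 3 was the highest array and tibial 1 and tibial 2 the lowest. The difference was 0.46 (SE 0.63), or 1.38-fold higher (adjusted p = 0.9995 in limma).

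Leaving out tibial 3 alone gave TIMP3 a difference of 1.23, and leaving out tibial 2 gave 0.02. Without mandibular 2 and tibial 3 it was 1.48 (SE 0.18, adjusted p = 0.0379 in limma over all probe sets). The TIMP3 level was high on the arrays whose jaw list means were high (mandibular 1, mandibular 3 and tibial 3, at 6.65 to 6.88) and low on tibial 1 and tibial 2, which had the highest macrophage list means. The part of cell composition in this was not tested, and in these bulk cultures fewer cells of a type and less RNA per cell cannot be told apart.

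**Figure D3:**
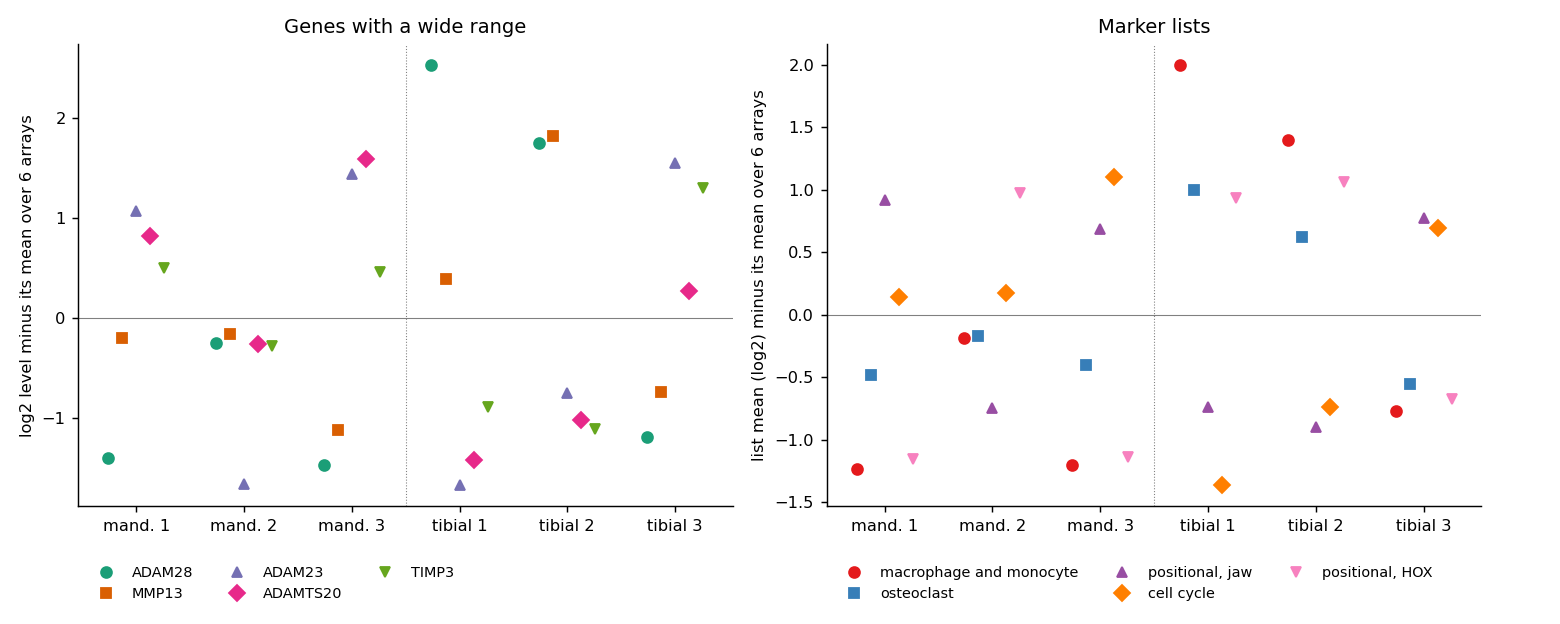
Left, levels of 5 genes with a wide range on each array (log2, minus the mean of that gene over the 6 arrays). Right, marker list means on the same arrays (log2, minus the mean of that list), in which macrophage genes are high on tibial 1 and tibial 2, as ADAM28 is, and jaw genes on mandibular 1, mandibular 3 and tibial 3, as ADAM23 and TIMP3 are.

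Of the ADAM genes, ADAM28 and ADAM23 carried most of the variation. ADAM28, a protease first described in lymphocytes, measured 3.53, 4.67 and 3.46 on the mandibular arrays, against 7.45, 6.68 and 3.73 on the tibial arrays. Tibial 1 and tibial 2 stood far above all other arrays, mandibular 2 was next, and tibial 3 lay within the mandibular values. The difference was -2.07 (SE 0.94), or 4.19-fold lower (adjusted p = 0.9995 in limma), the largest in size of the 49 genes. It was -1.32 without tibial 1 and -3.18 without tibial 3. Without mandibular 2 and tibial 3 it was -3.57 (SE 0.28, adjusted p = 0.0125 in limma). The levels on mandibular 1, mandibular 3 and tibial 3 lay below 3.90, the 25th percentile of all probe-set means. The sizes of these ADAM28 differences may therefore rest in part on values that cannot be separated from background.

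The order of ADAM28 over the top 3 arrays was also that of the macrophage list, whose means were 8.28 on tibial 1, 7.68 on tibial 2 and 6.09 on mandibular 2. The osteoclast list had the same top 3 arrays in the same order, with means of 7.15, 6.77 and 5.98. In that list 6 genes had lower mandibular means, while CTSK, NFATC1 and ITGB3 had higher ones, by 0.02, 0.33 and 0.39. The lymphocyte list (6 genes) had means from 4.07 to 4.16 on the mandibular and from 4.04 to 4.28 on the tibial arrays. The part of macrophages, osteoclasts or other cells in the ADAM28 levels was not tested. ADAM7, an epididymal gene separated from ADAM28 by 1 protein-coding gene in the annotation, did not share this pattern: it measured 4.76, 4.22 and 4.66 on the mandibular arrays, against 4.87, 4.38 and 5.46 on the tibial arrays. Its highest level was on tibial 3, where ADAM28 was low. Its difference was -0.36 (SE 0.29), and -0.08 without tibial 3. A second ADAM7 probe set, below 3.90 on every array, differed by -0.09 (SE 0.25).

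ADAM23, which lacks the zinc-binding site and acts as an adhesion and receptor protein in neurons, measured 6.005, 3.28 and 6.38 on the mandibular arrays, against 3.27, 4.19 and 6.49 on the tibial arrays. Each labelled site held both high and low arrays: mandibular 1, mandibular 3 and tibial 3 were high, and the other 3 were at 4.19 or below. The difference between the labelled sites was 0.57 (SE 1.07), and it was -0.12 without tibial 1 and 1.55 without mandibular 2. Without mandibular 2 and tibial 3 it was 2.47 (SE 0.34, adjusted p = 0.0567 in limma). The levels on mandibular 2 and tibial 1 lay below 3.90, the 25th percentile of all probe-set means, and may not be separable from background. The arrays with high ADAM23 were those with high jaw list means and low HOX list means. ADAM11 and ADAM22, its relatives that also lack a working active site, showed no such spread, with ranges of 0.34 and 0.49. ADAM11 measured 5.87, 5.77 and 5.53 on the mandibular arrays, against 5.57, 5.58 and 5.55 on the tibial arrays, and its difference was 0.16 (SE 0.13).

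The broadly expressed ADAM17 and ADAM9 varied little. ADAM17, which releases TNF and ligands of the EGF receptor from the cell surface, measured 8.61, 8.59 and 8.68 on the mandibular arrays, against 8.86, 8.83 and 8.62 on the tibial arrays. Its range of 0.27 was the smallest of all 49 genes, with a difference of -0.14 (SE 0.12). ADAM9 measured 11.76, 12.11 and 11.95 on the mandibular arrays, against 11.97, 11.89 and 11.90 on the tibial arrays, a difference of 0.02 (SE 0.13). Both groups lay within 0.35 log2 units. ADAM10, the sheddase of Notch receptors, had low values, 2.20, 3.10 and 2.80 on the mandibular arrays, against 2.54, 2.38 and 2.58 on the tibial arrays. The annotation gave this probe set a symbol but no gene number, and how well it reports ADAM10 was not tested.

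ADAM12, a protease of fusing muscle cells and osteoclasts and of mesenchyme, measured 10.03, 10.24 and 9.41 on the mandibular arrays, against 10.50, 10.05 and 10.02 on the tibial arrays. Mandibular 3 was the low array, and without it the difference of -0.29 (SE 0.25) was -0.05. For ADAM8, ADAM15, ADAM19 and ADAM33 the differences lay between 0.03 and 0.19 and the ranges between 0.33 and 1.105. The mainly testicular genes ADAM3A, ADAM5, ADAM29 and ADAM30 were low on all arrays, with differences from -0.08 to 0.04. Of the 17 ADAM genes, 10 had higher and 7 lower mandibular means.

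**Figure D4:**
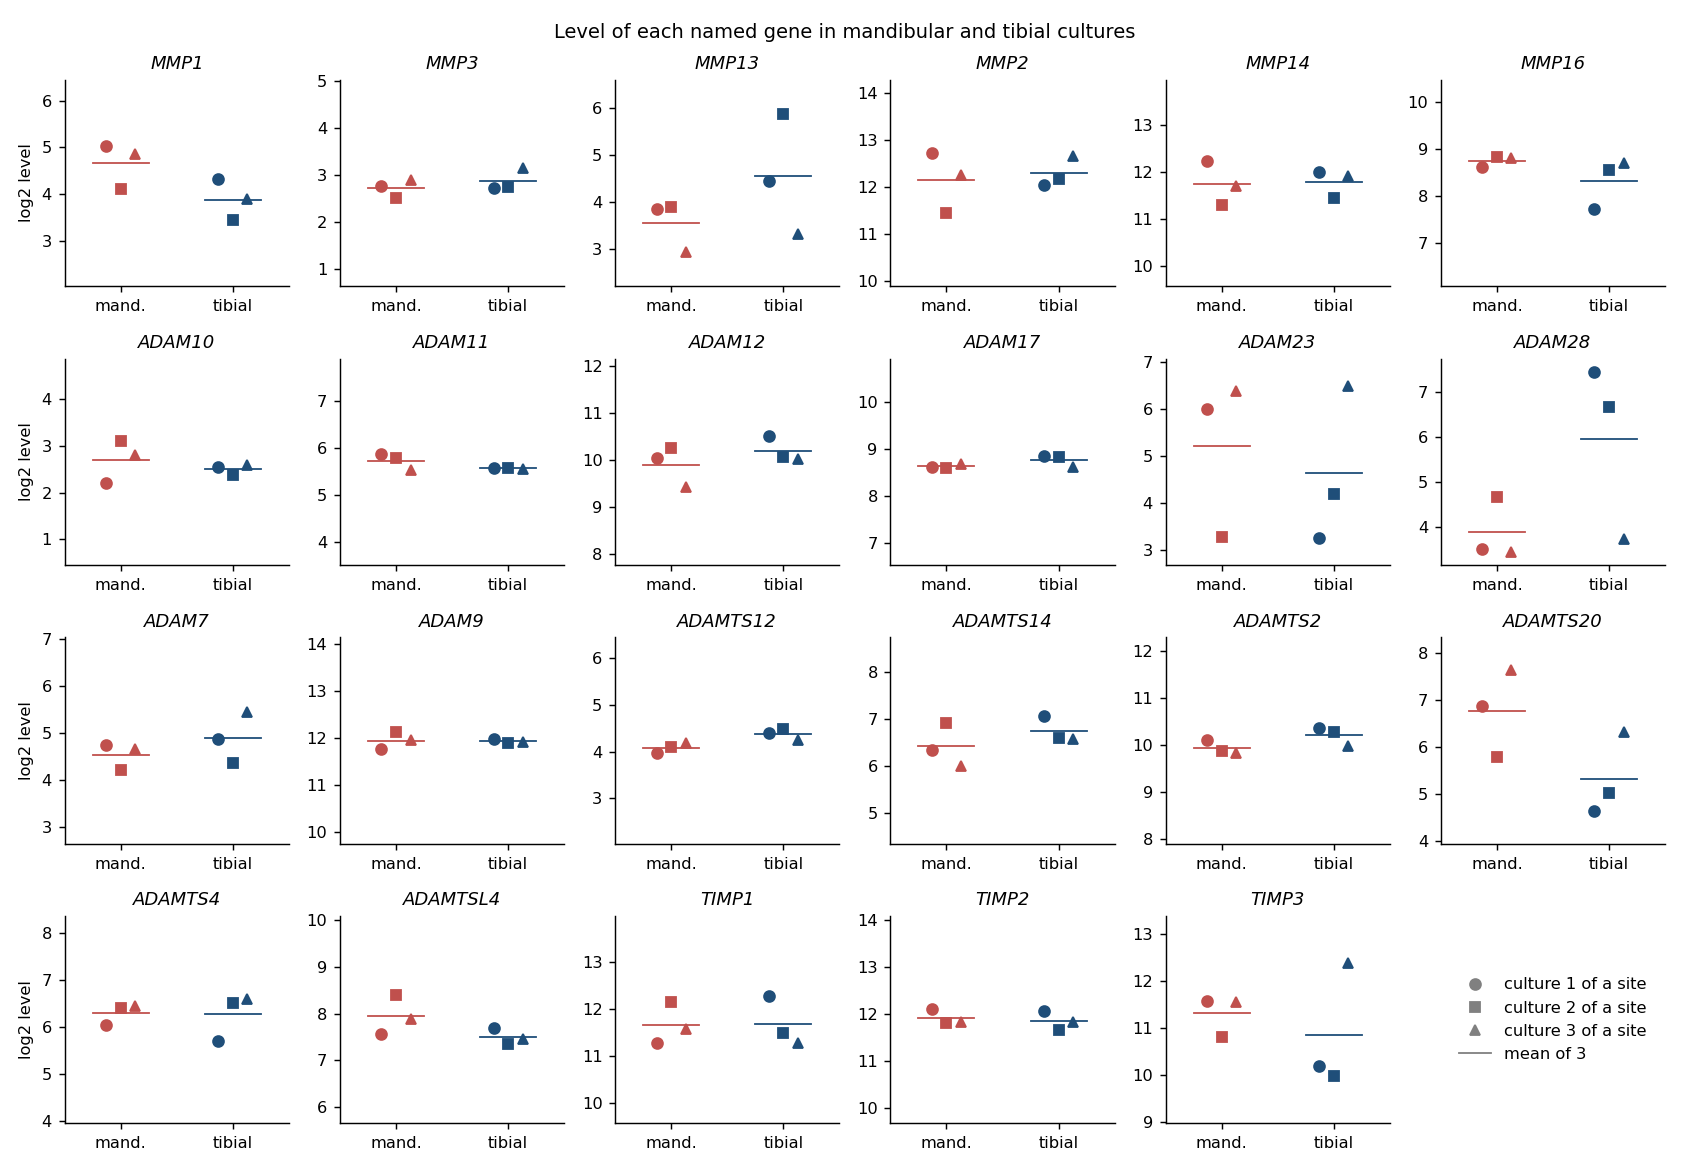
Levels of 23 genes (vertical axes, log2, each panel with its own scale) in the 3 mandibular and 3 tibial cultures, where symbols mark the culture number and lines the means. Only ADAMTS12 has no overlap between the sites, and in ADAM23, ADAM28 and TIMP3 tibial 3 stands apart from tibial 1 and tibial 2.

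Among the ADAMTS proteases, ADAMTS20 had the largest difference. ADAMTS20, a versican-cutting enzyme whose loss in mice gives a belt of unpigmented skin, measured 6.86, 5.78 and 7.64 on the mandibular arrays, against 4.63, 5.02 and 6.31 on the tibial arrays. Tibial 1 and tibial 2 were the lowest arrays, and tibial 3 lay between mandibular 2 and mandibular 1. The difference was 1.44 (SE 0.58), or 2.71-fold higher (adjusted p = 0.9995 in limma). It stayed between 1.00 and 1.93 when each array was left out in turn. Without mandibular 2 and tibial 3 it was 2.42 (SE 0.31, adjusted p = 0.0454 in limma). The ADAMTS20 probe set used here had no match to a RefSeq gene number, and how well it reports ADAMTS20 was not tested.

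A second ADAMTS20 probe set gave 6.37, 5.68 and 6.83 on the mandibular arrays, against 5.05, 5.01 and 5.97 on the tibial arrays, a difference of 0.95 (SE 0.37). It held tibial 1 and tibial 2 lowest and mandibular 3 highest as well. The cell cycle list (6 genes) was also lowest on tibial 1 and tibial 2 and highest on mandibular 3, with means of 7.14, 7.17 and 8.10 on the mandibular arrays, against 5.63, 6.26 and 7.70 on the tibial arrays. The arrays in between ranked otherwise: tibial 3 lay above mandibular 1 in the cell cycle list, but below it in each ADAMTS20 probe set. The part of the cell cycle in the ADAMTS20 levels was not tested.

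The other ADAMTS enzymes that cut large proteoglycans had differences near 0. ADAMTS4, an aggrecan-cutting enzyme, measured 6.03, 6.40 and 6.44 on the mandibular arrays, against 5.71, 6.50 and 6.60 on the tibial arrays. Tibial 1 was the low array, and the difference of 0.02 (SE 0.26) was -0.26 without it. ADAMTS8, ADAMTS9 and ADAMTS15 had differences of -0.18, 0.15 and -0.06, with ranges from 0.55 to 0.66. ADAMTS8 and ADAMTS15 are direct neighbours in the annotation and had their highest levels on different arrays, tibial 3 and tibial 1.

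ADAMTS2 and ADAMTS14, which remove the amino-terminal propeptide of fibrillar procollagens, had lower mandibular means. ADAMTS2 measured 10.10, 9.87 and 9.82 on the mandibular arrays, against 10.36, 10.28 and 9.98 on the tibial arrays, a difference of -0.27 (SE 0.15). Mandibular 1 lay above tibial 3, so the groups overlapped. ADAMTS14 measured 6.34, 6.91 and 6.01 on the mandibular arrays, against 7.07, 6.60 and 6.57 on the tibial arrays, a difference of -0.33 (SE 0.26). ADAMTS3, the third of these enzymes, differed by 0.06 (SE 0.18).

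All of the other 5 ADAMTS genes had lower mandibular means, with differences from -0.38 to -0.06. ADAMTS12, an enzyme that cuts cartilage oligomeric matrix protein, measured 3.97, 4.09 and 4.19 on the mandibular arrays, against 4.40, 4.49 and 4.24 on the tibial arrays. The groups did not overlap, but the gap between mandibular 3 and tibial 3 was small and the levels were low. The difference was -0.29 (SE 0.12, adjusted p = 0.9995 in limma). ADAMTS16, ADAMTS7, ADAMTS6 and ADAMTS19 differed by -0.38, -0.24, -0.20 and -0.06. Without mandibular 2 and tibial 3 the ADAMTS6 difference was 0.19, so the shared direction was lost.

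The 3 ADAMTS-like genes, which encode matrix proteins without a protease domain, had differences of 0.44 (SE 0.23) for ADAMTSL4, 0.11 for ADAMTSL5 and 0.01 for ADAMTSL3. ADAMTSL4, a protein of fibrillin microfibrils, measured 7.56, 8.39 and 7.87 on the mandibular arrays, against 7.69, 7.35 and 7.47 on the tibial arrays. Mandibular 2 was highest, and without it the difference was 0.21.

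Without the arrays labelled mandibular 2 and tibial 3, 3 of 49 genes passed the adjusted threshold in limma, against 0.708% of all probe sets (0.16% higher and 0.548% lower). ADAM28 had the lower mandibular mean, and ADAMTS20 and TIMP3 had higher ones. At an unadjusted p under 0.05 there were 12 of 49 genes, 4 with higher and 8 with lower mandibular means, against 9.5% of all probe sets. The groups did not overlap for 24 of 49 genes, against 37.3% of all probe sets. Mandibular values were the higher ones for 10 of 49 genes (20.4%, against 20.7% of all probe sets) and the lower ones for 14 of 49 (28.6%, against 16.6%). Leaving out tibial 3 alone gave 14 of 49 genes without overlap, against 21.7% of all probe sets. Single omissions gave 0 of 49 calls in limma, where 0.00363% of all probe sets passed without tibial 1 and 0.00726% without tibial 3. Without both arrays, the direction of the difference turned for 10 of 49 genes, among them MMP2, MMP3, MMP14, ADAM7 and ADAM9. The median difference was 0.07, against 0.02 over all probe sets.

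**Figure D5:**
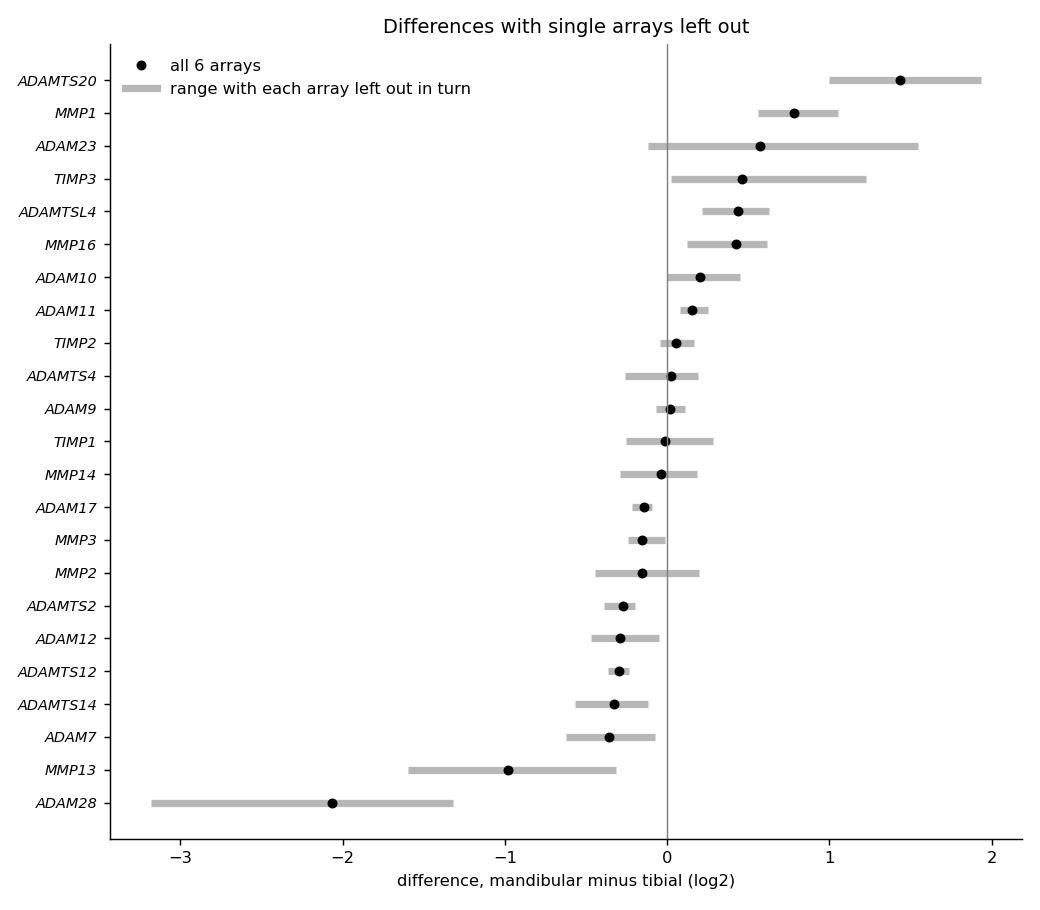
Difference of 23 genes (horizontal axis, log2, mandibular minus tibial) with all 6 arrays as points, and as bars the lowest to highest value when each array was left out in turn. The bars of ADAM28, MMP13, MMP1 and ADAMTS20 stay on one side of 0, while those of ADAM23, MMP2, MMP14, TIMP1, TIMP2, ADAM9 and ADAMTS4 cross it.

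Genes that act on or are acted on by these proteases had no calls between the labelled sites either. Of 12 measured regulators, which include proprotein convertases, A2M and tetraspanins that guide ADAM10, 6 had higher and 6 lower mandibular means, with a median difference of 0.05. A2M, a general protease inhibitor, measured 7.97, 8.54 and 8.34 on the mandibular arrays, against 8.56, 7.21 and 6.57 on the tibial arrays, a difference of 0.84 (SE 0.48). TSPAN14, a tetraspanin partner of ADAM10, differed by -0.31 (SE 0.15), and RHBDF2, which carries ADAM17 to the cell surface, by -0.43 (SE 0.27). Of 10 genes of plasminogen activation, 7 had higher means, and the median was 0.07. SERPINB2, an inhibitor of urokinase, differed by 0.45 (SE 0.30), KLKB1, plasma prekallikrein, by 0.15 and ENO1, a glycolytic enzyme that also binds plasminogen, by -0.31.

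Of 10 other metalloproteases, 4 had higher mandibular means. The median was -0.02, and MME (neprilysin), ECE1 (endothelin-converting enzyme) and MEP1A (meprin alpha) differed by 0.58, -0.32 and -0.16. Of 13 matrix substrates, 6 had higher means with a median of -0.06, and COL2A1 (cartilage collagen), SPARC (a collagen-binding protein) and TNC (tenascin) differed by -0.22, -0.16 and 0.42. Of 10 genes of AP-1 and the inflammatory signals that induce MMPs, 5 had higher means with a median of -0.12, and the cytokines OSM and TNF and the transcription factor ETS1 differed by -0.44, -0.29 and 0.23. In limma 0 genes of these 5 lists passed the adjusted threshold, and 0 had an unadjusted p under 0.05, against 3.03% of all probe sets. Without mandibular 2 and tibial 3, limma called PAPPA, a protease of insulin-like growth factor binding proteins (-1.84, adjusted p = 0.0446), and the proteoglycan VCAN (-1.39, adjusted p = 0.0372). Both were lower in mandibular cultures, and with all 6 arrays their differences were -0.22 and -0.29. Of all probe sets, 0.708% were called in that smaller fit.

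Of 17 measured substrates that ADAMs release from the cell surface, 9 had a range of at least 1, or 52.9%. This share was 16.1% over all probe sets and 14.6% over genes with a single symbol. Of these 17, 9 had higher means, the median was 0.07, and 0 passed in limma. At an unadjusted p under 0.05 there was 1 of 17, against 3.03% of all probe sets. CSF1R, the macrophage growth factor receptor, measured 5.73, 6.67 and 5.64 on the mandibular arrays, against 8.86, 8.85 and 6.001 on the tibial arrays, a difference of -1.89 (SE 0.79). Without mandibular 2 and tibial 3 it was -3.17 (adjusted p = 0.00598 in limma). This was the sole call among the 17 substrates, against 0.708% of all probe sets. CSF1R is also in the macrophage list, so its values are already part of the means of that list. AREG, an EGF receptor ligand released by ADAM17, measured 6.40, 6.50 and 8.26 on the mandibular arrays, against 4.00, 3.98 and 7.71 on the tibial arrays, a difference of 1.82 (SE 1.07). For both genes tibial 3 lay on the mandibular side, as it did for ADAM28 and ADAMTS20, while ADAM17 itself ranged over 0.27 log2 units. PTPRZ1, a receptor phosphatase, differed by 0.39 (SE 0.17) at low levels.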

How the data were processed

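The deposited log2 values of 27558 probe sets on 6 arrays were used as given. The submitters' processing notes name Transcriptome Analysis Console 3.0, Affymetrix Expression Console and RMA as tools of the authors. RMA makes array distributions equal before probes are summarized to probe sets, so a shift shared by all genes would have been largely removed. The deposited values were not exactly equal in distribution, with array medians from 5.63 to 5.71. Genome build and settings were not given in the sources used here. Symbols came from the platform annotation (1 symbol for 13157 probe sets, several for 523, none for 13878). Of the 49 members, 46 matched a RefSeq gene number of Sscrofa11.1, all with the same symbol. ADAM10, ADAM29 and ADAMTS20 had no match.

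Differences were fitted with limma 3.58.1 in R 4.3.3 (lmFit, eBayes), two-sided, unpaired, with p-values adjusted by the Benjamini-Hochberg method over the 27558 probe sets, at a threshold of 0.05. The fit was tested on simulated data (20 runs, 200 changed probe sets each). The number of arrays limits precision, and nothing in the labels says whether p-values measure more than the spread between these cultures.

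Members, gene lists and the arrays left out were chosen with earlier results of these data known. Values of all 6 arrays are given for every TIMP, for MMP1, MMP2, MMP3, MMP13, MMP14, ADAM10, ADAM17 and ADAMTS4, for the 5 genes of smallest unadjusted p in each direction, and for the 8 with the highest mean and the 8 with the widest range (23 genes). MMP12 was added after its values were seen. Of each other list, the 3 genes of smallest p are named, and PAPPA and VCAN were added for their calls without both arrays. Marker lists are given as list means per array. The alternatives were median centring, an unmoderated fit, trend with robust fitting, a filter on low levels, array weights, the mean of all probe sets of a gene, the culture number as a block, and omitted arrays.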

Additional observations from a re-analysis of the deposited data

How the results depend on the processing

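With all 6 arrays, 0 of the 49 genes were called in every alternative fit: median centring, no moderation, trend with robust fitting, the filter on low levels, array weights, averaged probe sets and the replicate block. Leaving out single arrays also gave 0 calls among the 49, and between 0 and 2 calls over all probe sets (1 without tibial 1, 2 without tibial 3). Genes without overlap then numbered from 3 to 14, against 1 with all arrays; the construction sets this, since fewer values overlap less often (21.7% of all probe sets without tibial 3). The median difference ranged from -0.09 to 0.01. Without both mandibular 2 and tibial 3 there were 195 calls over all probe sets, 3 among the 49, and 24 genes without overlap. Of 23 named genes, 14 kept their direction in every alternative. Without both arrays the differences reversed to 0.087 for ADAM7, -0.074 for ADAM9, 0.25 for MMP14, 0.38 for MMP2 and 0.090 for MMP3. With array weights they reversed to -0.060 for ADAMTS4, 0.021 for MMP14 and 0.090 for TIMP1, and with median centring to 0.012 for TIMP1. Over all omissions, that of both arrays included, the range crossed 0 for ADAM23 (-0.12 to 2.47), ADAM7 (-0.62 to 0.087), MMP3 (-0.24 to 0.090), ADAM9 (-0.074 to 0.11), ADAMTS4 (-0.26 to 0.19), MMP14 (-0.29 to 0.25), MMP2 (-0.44 to 0.38), TIMP1 (-0.46 to 0.28) and TIMP2 (-0.043 to 0.16). The cause of these shifts was not tested. Same-numbered cultures did not deviate together in every pair (correlations -0.03, 0.21 and 0.47). Of 3 mandibular arrays, the deviations of mandibular 1 and mandibular 2 were most correlated with another number (tibial 3 and tibial 1). These correlations cannot tell which cultures share a pig. The 3 deviations of a site depend on one another, and mandibular 2 and tibial 3 stood apart within their sites. The numbers were not taken as pairs because no label ties them to a pig. The replicate block gave 0 calls over all probe sets, with 1511 at an unadjusted p under 0.05 against 836, and 4 against 2 among the 49. Low signal limits the 11 of 49 genes with means below the 25th percentile, and MMP1, MMP13 and ADAMTS12 lay not far above it. ADAM28 and ADAM23 had levels below it on some arrays.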
